A study of Homo sapiens with 12 samples.

Results

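The aminoacyl-tRNA synthetases are the enzymes that load each amino acid onto its transfer RNA. They were taken from the table of HCT116 and PANC1 cells by gene name. The rule used no measured value, but the family was chosen with earlier results of these data known. All 36 names had a row, out of 34687 rows in the table. Of these, 20 encode cytosolic enzymes and 16, with names ending in 2, encode mitochondrial enzymes. GARS (glycine) and KARS (lysine) were counted as cytosolic, although each of these genes also provides the enzyme of the mitochondrion. The question asked here is how the cytosolic and the mitochondrial enzymes moved, and whether they moved together, when cells received an inhibitor of the histone acetyltransferases CBP and p300 or of the contact of CBP with β-catenin.

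Human cells keep separate sets of synthetases for the ribosomes of the cytosol and for those of the mitochondrion, and both sets are encoded in the nucleus. Several cytosolic synthetases sit together with scaffold proteins in the multisynthetase complex. Many cytosolic synthetase genes are known targets of ATF4, the transcription factor of the amino acid starvation and integrated stress response, which binds the C/EBP-ATF response element. Genes for amino acid synthesis and uptake belong to the same program.

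HCT116 is a colorectal cancer line and PANC1 is a pancreatic adenocarcinoma line. Each line received DMSO at 0.05%, the solvent control, or 10 uM ICG-001, which blocks the binding of CBP to β-catenin, or 10 uM C646, which inhibits the acetyltransferase activity of p300 and CBP. Cells were collected after 12 or 96 h, which gives 12 groups with 1 column of values each. By the methods, medium and drug were renewed daily, and the cultures for 96 h were started at lower density than those for 12 h and were passaged, so time cannot be told apart from density and passage. The labels give 11 columns as the mean of 2 arrays and 1 column, PANC1 with ICG-001 at 12 h, as the mean of 3 arrays. Only these means were used, so no comparison has a replicate check and no test was run. Every difference below is a size between columns, with a precision limited by how few arrays lie behind it.

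The values are signals on a linear scale, and background was left in them, so ratios of dim genes understate their changes. A gene was called detected in a column when its signal exceeded a limit set from the background of that column, which lay between 144.2 and 144.9 in HCT116 and between 136.2 and 138.6 in PANC1. A comparison took a gene if either of its columns exceeded the limit. It was called higher or lower at a ratio of at least 1.5, which is 0.58 on the log2 scale. In every column, 34 or 35 of the 36 synthetases were above the limit. The exceptions were FARSB, with signals from 123.6 to 140.9, and WARS2, with signals from 121.6 to 160.2. For genes that never passed the limit in a line, the SD of the log2 ratios was 0.06 to 0.07, which describes background and is not the replicate error of bright genes. Signals were compared only within a cell line, because each line seems to have had its own normalization, and never between genes. Of the epithelial markers checked for HCT116, CDX2, EPCAM, CDH1, KRT8 and KRT18 were detected in all 6 columns, KRT20 was above the limit in 1 column, and VIL1, LGALS4 and CDH17 were in none. In PANC1, KRT7, KRT19, SOX9, VIM and CAV1 were detected in all 6 columns, and VIM read between 14637 and 18144. Detection of these markers did not separate the lines. CDX2, EPCAM, CDH1, KRT8 and KRT18 were also detected in all 6 PANC1 columns, LGALS4 in 5 and CDH17 in 1. KRT19, SOX9, VIM and CAV1 were also detected in all 6 HCT116 columns, and KRT7 in 4.

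To determine if ICG-001 altered the synthetases, the treated columns were set against DMSO, matched by line and time. The median of the cytosolic synthetases lay above a ratio of 1 in all 4 of these comparisons, whereas the mitochondrial ones were centred near a ratio of 1. In HCT116, 8 of the 19 cytosolic members that could be compared rose by at least 1.5-fold at 12 h, and 8 rose at 96 h, against 4.96% and 5.26% of all genes. In PANC1, 7 of 20 rose at 12 h and 6 rose at 96 h, against 2.23% and 3.95% of all genes. No cytosolic member was 1.5-fold lower than its matched DMSO column, where 4.27% and 5.23% of all genes were in HCT116 and 0.345% and 3.65% in PANC1. Against the DMSO column of 96 h, QARS was 1.57-fold lower with ICG-001 in HCT116 at 12 h. With background correction by normexp, FARSA and FARSB were 1.52-fold and 1.53-fold lower in PANC1 at 96 h. FARSB lay near the detection limit there, at 140.9 in DMSO and 123.6 with ICG-001, and its uncorrected log2 ratio was -0.19. The bright row FARSLB, which carries an older name of the same gene, had 0.34. Which row reads the gene cannot be settled without probe sequences. Each column is a bulk culture, so a change in every cell and a change in some of the cells cannot be told apart.

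The median log2 ratio of the cytosolic members was 0.55 in HCT116 at 12 h and 0.39 at 96 h, and it was 0.46 in PANC1 at 12 h and 0.16 at 96 h. The median over all genes lay between -0.02 and 0.01 in every comparison. The choice of control column mattered most in PANC1. Against the DMSO column of 96 h in place of that of 12 h, the PANC1 ICG-001 column of 12 h had 0 cytosolic members higher by 1.5-fold and a median of 0.28. Against the DMSO column of 12 h, the PANC1 ICG-001 column of 96 h had 9 members higher and a median of 0.49.

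**Figure D1:**
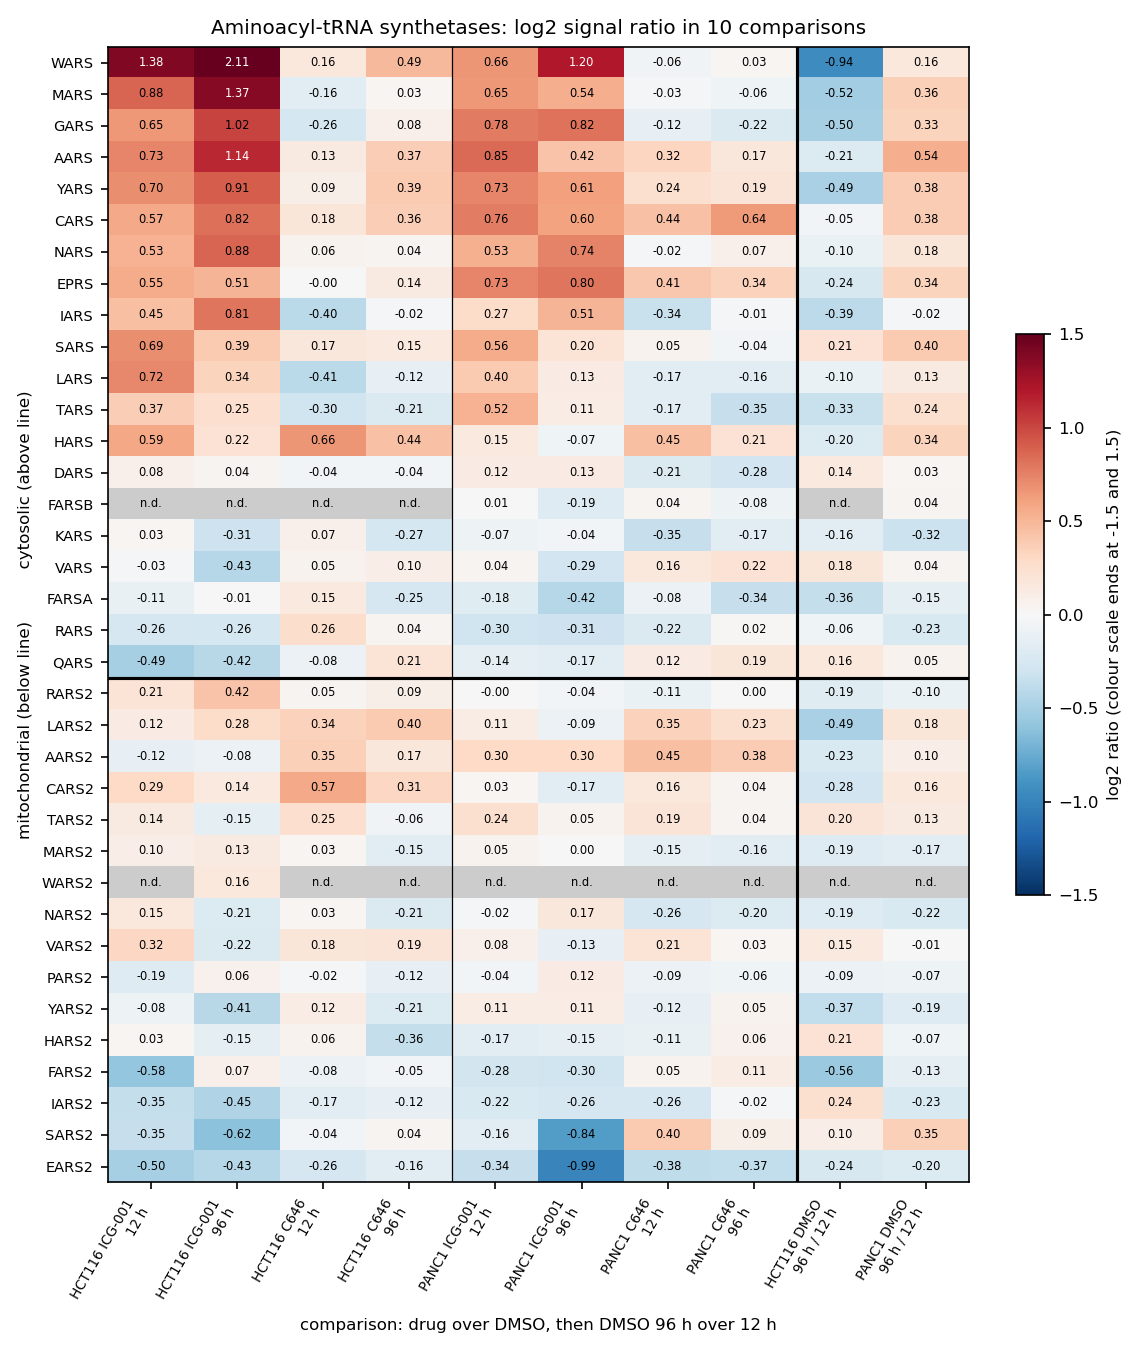
Log2 signal ratios of the 36 synthetases, with 1 row per gene and 1 column per comparison: each drug over DMSO in HCT116 and PANC1, then DMSO at 96 h over DMSO at 12 h. Colour and printed number give the ratio (red higher, blue lower, grey cells marked n.d. under the detection limit in both columns), and the red block lies among the cytosolic genes under ICG-001, from WARS with 2.11 in HCT116 at 96 h down to HARS.

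Only GARS, WARS and YARS rose by at least 1.5-fold in all 4 ICG-001 comparisons, 3 of the 19 cytosolic members above the limit in all of them, against 0.601% of all genes. WARS, which charges tryptophan and is also known as an interferon-inducible gene, had the highest log2 ratio of the synthetases in 3 of the 4 comparisons. In PANC1 at 12 h its 0.66 lay below AARS (0.85), GARS (0.78), CARS (0.76), EPRS (0.73) and YARS (0.73). In HCT116, WARS read 953 in DMSO, 2487 with ICG-001 and 1066 with C646 after 12 h, and 496, 2147 and 697 in the same order after 96 h. The ICG-001 columns were the highest of the line at both times, and the fold over DMSO was 2.61 at 12 h and 4.33 at 96 h. In PANC1, WARS read 619, 978 and 596 at 12 h and 693, 1597 and 706 at 96 h, again in the order DMSO, ICG-001 and C646. The PANC1 fold was 1.58 at 12 h and 2.30 at 96 h, and C646 lay beside DMSO at both times.

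GARS, the glycine enzyme of both compartments, read 4694 in DMSO, 7344 with ICG-001 and 3914 with C646 in HCT116 at 12 h, and 3330, 6731 and 3519 at 96 h. In PANC1 it read 5409, 9286 and 4961 at 12 h and 6810, 11994 and 5842 at 96 h. In each line and at each time the ICG-001 column was highest, with folds over DMSO of 1.56 and 2.02 in HCT116 and of 1.72 and 1.76 in PANC1. YARS, the tyrosine enzyme, read 3464 in DMSO, 5636 with ICG-001 and 3692 with C646 in HCT116 at 12 h, and 2474, 4636 and 3238 at 96 h. Its PANC1 signals were 1921, 3185 and 2265 at 12 h and 2508, 3838 and 2863 at 96 h. The YARS folds for ICG-001 were 1.63 and 1.87 in HCT116, against 1.66 and 1.53 in PANC1. These 3 genes were no longer 1.5-fold higher in PANC1 at 12 h against the DMSO column of 96 h, where the log2 ratio was 0.50 for WARS, 0.45 for GARS and 0.34 for YARS. In HCT116 at 96 h against the DMSO column of 12 h it was 1.17 for WARS, 0.52 for GARS and 0.42 for YARS.

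KARS, the lysine enzyme and the other gene that serves both compartments, took no part in this rise. KARS read 988 in DMSO, 1008 with ICG-001 and 1040 with C646 in HCT116 at 12 h, and 885, 716 and 735 at 96 h. In PANC1 it read 905, 860 and 711 at 12 h and 723, 703 and 642 at 96 h. Its log2 ratios for ICG-001 ran from -0.31 to 0.03, where those of GARS ran from 0.65 to 1.02, so the 2 genes with both roles lay apart in all 4 comparisons.

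**Figure D2:**
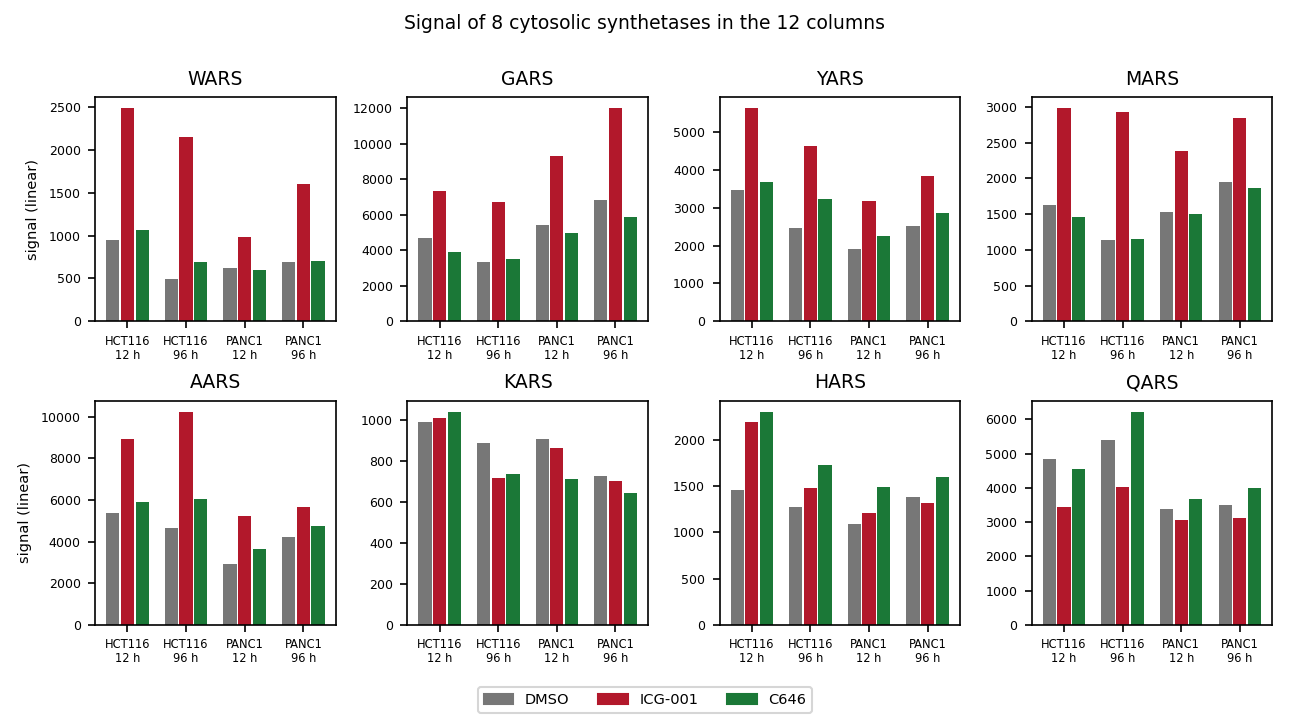
Signal on a linear axis from 0 for 8 cytosolic synthetases, with 1 bar per column in HCT116 and PANC1 at 12 and 96 h: DMSO grey, ICG-001 red, C646 green, no error bars since each group has 1 column. The red bar is the tallest of its trio for WARS, GARS, YARS, MARS and AARS in every trio, whereas KARS stays between 642 and 1040, HARS is tallest with C646 and QARS is lowest with ICG-001.

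The next genes were chosen after their values were seen. MARS, the methionine enzyme of the multisynthetase complex, rose from 1625 to 2982 in HCT116 at 12 h, from 1132 to 2927 at 96 h and from 1524 to 2384 in PANC1 at 12 h, and it read 1949 in DMSO and 2837 with ICG-001 in PANC1 at 96 h. The folds were 1.84, 2.59, 1.56 and 1.46, so the last one fell just short of the threshold. AARS, the alanine enzyme, rose by 0.73 and 1.14 on the log2 scale in HCT116 and by 0.85 in PANC1 at 12 h, and its log2 ratio in PANC1 at 96 h was 0.42. CARS (cysteine) rose in 3 of the 4 comparisons and had a log2 ratio of 0.57 in HCT116 at 12 h. EPRS, a single protein that charges glutamate and proline, rose 1.66-fold and 1.75-fold in PANC1 and had log2 ratios of 0.55 and 0.51 in HCT116. NARS (asparagine) rose at 96 h in both lines, 1.84-fold and 1.67-fold. IARS (isoleucine) rose in HCT116 at 96 h, and LARS (leucine) and SARS (serine) rose there at 12 h, with log2 ratios of 0.81, 0.72 and 0.69. Several members thus lay close to the threshold on either side of it, and 12 of the 19 cytosolic members above the limit in all 4 ICG-001 comparisons passed it upwards in at least 1 of them, against 11.6% of all genes.

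At the other end, FARSA, QARS and RARS had ratios under 1 in all 4 ICG-001 comparisons, and none of them reached 1.5-fold. These are 3 of 19 cytosolic members, and 20.9% of all genes had the same pattern, so their number is not above that of genes at large. QARS, the glutamine enzyme, had log2 ratios of -0.49 and -0.42 in HCT116 and of -0.14 and -0.17 in PANC1. RARS (arginine) had log2 ratios between -0.31 and -0.26 in the 4 comparisons. FARSA, the catalytic subunit of the phenylalanine enzyme, ran from -0.42 to -0.01. QARS and RARS belong to the multisynthetase complex, as do MARS, EPRS, IARS, LARS, DARS and KARS. The 8 synthetases of this complex therefore did not move as a unit. Their log2 ratios for ICG-001 spanned -0.49 to 0.88 in HCT116 at 12 h and -0.42 to 1.37 at 96 h, with medians of 0.26 and 0.19.

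DARS, the aspartate enzyme, stayed within 0.04 to 0.13, and VARS, the valine enzyme, had log2 ratios between -0.43 and 0.04. The row named FARSB, the second subunit of the phenylalanine enzyme, was at or near the limit. A further row of the table, FARSLB, carries an older name of FARSB, and without probe sequences it is open which row reads the gene. The FARSLB row read 14098 to 20816, far above the limit. Its log2 ratios over DMSO were 0.28 to 0.43 for ICG-001 and 0.33 to 0.50 for C646, all short of 1.5-fold.

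To relate the rise to the known regulation of these genes, the cytosolic members were split by whether they are known ATF4 targets. The 13 ATF4-linked members were AARS, CARS, EPRS, GARS, IARS, LARS, MARS, NARS, SARS, TARS, VARS, WARS and YARS. Under ICG-001, 12 of these 13 had ratios above 1 in all 4 comparisons, VARS being the exception, against 19.7% of all genes. Their median log2 ratios in HCT116 were 0.65 at 12 h and 0.82 at 96 h, and those in PANC1 were 0.65 and 0.54. The other 7, DARS, FARSA, FARSB, HARS, KARS, QARS and RARS, had medians of -0.04 and -0.14 in HCT116 and of -0.07 and -0.17 in PANC1. The only one of these 7 to reach 1.5-fold was HARS in HCT116 at 12 h, at a log2 ratio of 0.59. The split uses general knowledge of these genes but was drawn with results of these data known, so it is not independent evidence.

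Promoter sequences of RefSeq (GRCh38.p14, 250 bases before to 50 bases after the first start site listed for each gene) were searched on both strands for TGATGNAA, the core of the C/EBP-ATF response element. An entry was found for 16 cytosolic and 14 mitochondrial members. DARS, LARS, VARS, YARS, AARS2 and VARS2 were not searched. The letters were present in 6 of the 16 cytosolic promoters (37.5%), in 1 of the 14 mitochondrial promoters (7.14%) and in 3.67% of all 27305 promoters of the table. All 6 belong to the ATF4-linked group, in which 10 promoters were searched (60%), and the other 6 cytosolic promoters had none. ATF4 binds this element, so a group of known ATF4 targets and a search for the element are not independent. The contrast therefore says nothing about the rise with ICG-001. In all 6 the match was TGATGCAA or its reverse complement TTGCATCA, which 0.923% of all promoters hold. This narrower form was chosen after the matches were seen. Stretches of 30 bases around the 6 matches are printed to show the letters that were found. AARS, CARS, IARS, MARS and NARS rose by 1.5-fold in at least 1 ICG-001 comparison, whereas the log2 ratios of TARS ended at 0.52. Each is written along the direction of its gene, with the match in capitals:
AARS: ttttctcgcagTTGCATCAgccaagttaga
CARS: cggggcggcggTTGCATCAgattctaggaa
IARS: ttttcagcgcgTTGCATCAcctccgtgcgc
MARS: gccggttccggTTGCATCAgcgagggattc
NARS: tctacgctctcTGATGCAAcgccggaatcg
TARS: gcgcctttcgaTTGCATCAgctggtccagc

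The AARS stretch lies at chr16:70289675-70289704 on the minus strand, with the match beginning 187 bases before the start site. The CARS stretch is at chr11:3057407-3057436 and the IARS stretch at chr9:92293692-92293721, both on the minus strand, and their matches begin 2 and 13 bases before the start. The MARS match begins 4 bases before the start, in chr12:57488053-57488082 on the plus strand. In TARS, at chr5:33440956-33440985 on the plus strand, and in NARS, at chr18:57621804-57621833 on the minus strand, the match begins at transcribed base 3 and at transcribed base 15. Of the 3 genes that rose in all 4 ICG-001 comparisons none had a match, since WARS and GARS had entries without these letters and YARS was not searched. EPRS, SARS and HARS had entries without them as well, and each rose by 1.5-fold in at least 1 ICG-001 comparison. FARSA, FARSB, KARS, QARS and RARS, also searched without a match, did not. The mitochondrial match was in YARS2, whose log2 ratios for ICG-001 ran from -0.41 to 0.11. Matches are a description of the letters and not evidence of a bound site, and a window without them says only that the letters are not in it.

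In contrast, no mitochondrial synthetase was 1.5-fold higher with ICG-001 than its matched DMSO column. With 15 or 16 members compared, a count of 0 is also near the 2.23% to 5.26% of all genes that were higher. Against the DMSO column of 96 h, LARS2 (leucine) was 1.52-fold higher with ICG-001 in HCT116 at 12 h, and IARS2 (isoleucine) was 1.51-fold lower. Against the DMSO column of 12 h, EARS2 and YARS2 were 1.58-fold and 1.73-fold lower with ICG-001 in HCT116 at 96 h. Over matched DMSO, the medians of the mitochondrial members were 0.03 and -0.12 in HCT116, and -0.00 and -0.09 for PANC1, at 12 and 96 h. SARS2 fell in HCT116 at 96 h, and EARS2 and SARS2 fell in PANC1 at 96 h, 1 and 2 members beside the 5.23% and 3.65% of all genes that were lower there. EARS2, SARS2 and IARS2 were the mitochondrial members with ratios under 1 in all 4 ICG-001 comparisons, 3 of the 15 above the limit in all of them, a share close to the 20.9% of all genes.

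**Figure D3:**
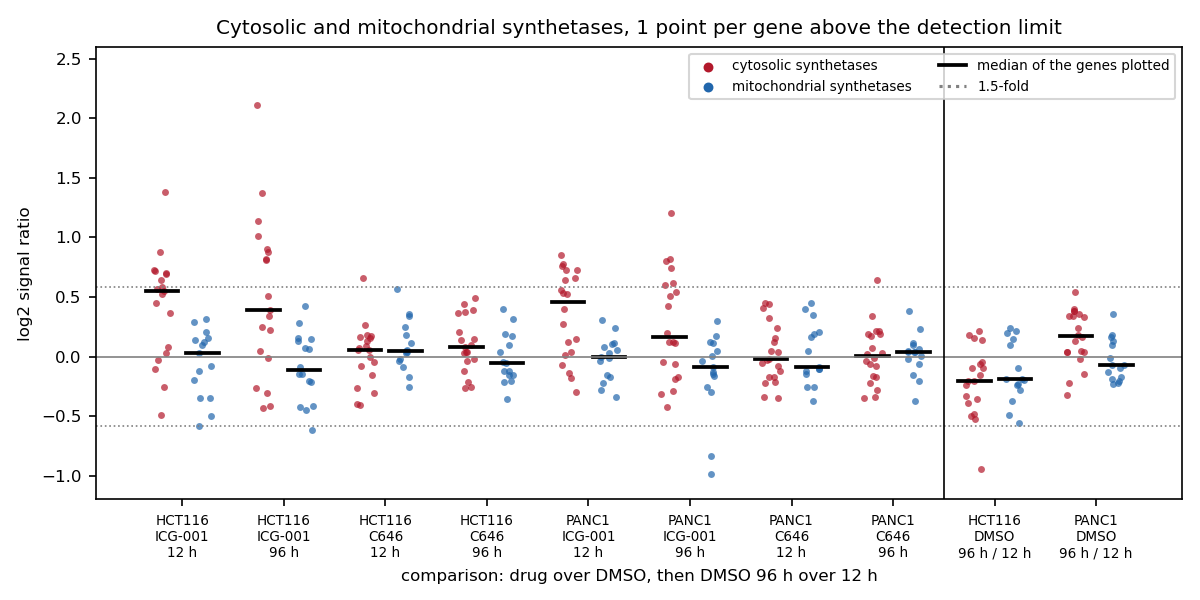
Log2 signal ratio of each synthetase above the detection limit, cytosolic in red and mitochondrial in blue, for each drug over DMSO and for DMSO at 96 h over 12 h; black bars are medians over the genes plotted and dotted lines mark 1.5-fold. Under ICG-001 the cytosolic medians (0.16 to 0.55) lie above the mitochondrial ones (-0.12 to 0.03), and under C646 the cytosolic medians (-0.02 to 0.08) and the mitochondrial ones (-0.09 to 0.05) overlap.

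EARS2, the mitochondrial glutamate enzyme, read 721 in DMSO, 510 with ICG-001 and 604 with C646 in HCT116 at 12 h, and 612, 456 and 549 at 96 h. Its PANC1 signals were 862, 680 and 665 after 12 h, and after 96 h they were 749, 378 and 579. DMSO gave the highest value of each trio. The fall with ICG-001 was 1.98-fold in PANC1 at 96 h, and its folds in the other 3 comparisons, 1.41, 1.34 and 1.27, did not reach the threshold. SARS2, the mitochondrial serine enzyme, read 1202, 945 and 1171 in HCT116 at 12 h and 1287, 837 and 1323 at 96 h, in the order DMSO, ICG-001 and C646. In PANC1 it read 2751, 2464 and 3625 at 12 h and 3514, 1969 and 3747 at 96 h. SARS2 fell 1.54-fold in HCT116 and 1.78-fold in PANC1 at 96 h, and with C646 it stood above DMSO in 3 of the 4 columns. Against the DMSO column of 12 h the PANC1 log2 ratio at 96 h was -1.19 for EARS2 and -0.48 for SARS2, so the SARS2 fall was no longer 1.5-fold. In HCT116 at 96 h the SARS2 log2 ratio became -0.52, and that of EARS2 became -0.66, past 1.5-fold.

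IARS2, the mitochondrial isoleucine enzyme, was chosen after its values were seen. EARS2 and IARS2 were the only members above the limit throughout with ratios under 1 in all 8 drug comparisons, and 11.9% of all genes had this pattern. IARS2 had log2 ratios of -0.35 and -0.45 in HCT116 and of -0.22 and -0.26 in PANC1 for ICG-001, and between -0.26 and -0.02 with C646. FARS2 (phenylalanine) had a log2 ratio of -0.58 in HCT116 at 12 h, just short of the threshold, and 0.07 at 96 h. AARS2, the mitochondrial alanine enzyme, lay the other way in PANC1, with 0.30 at both times for ICG-001.

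**Figure D4:**
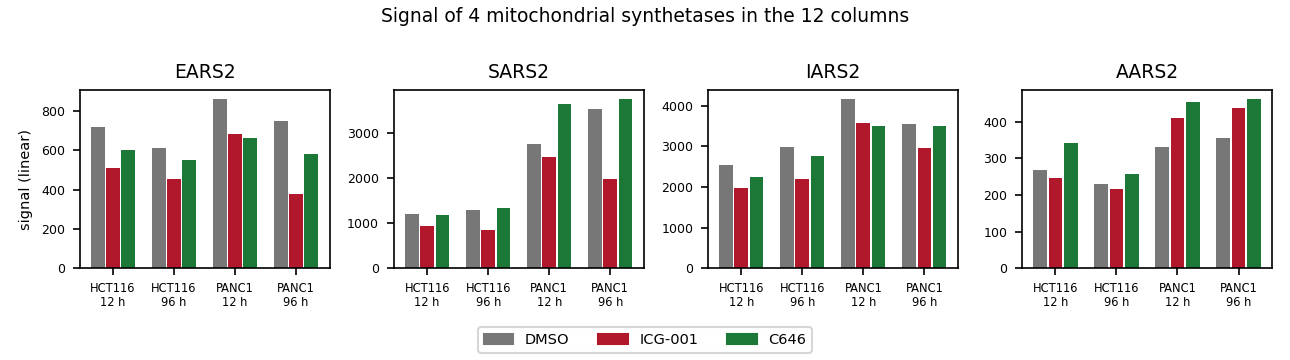
Signal on a linear axis from 0 for 4 mitochondrial synthetases, with 1 bar per column in HCT116 and PANC1 at 12 and 96 h: DMSO grey, ICG-001 red, C646 green, no error bars since each group has 1 column. EARS2 falls to 378 and SARS2 to 1969 in PANC1 with ICG-001 at 96 h, IARS2 is highest in DMSO in every trio, and AARS2 in PANC1 is lowest in DMSO.

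To compare the compartments amino acid by amino acid, the ratio of each cytosolic gene was set against that of the mitochondrial gene for the same amino acid, 17 pairs over 16 amino acids. EPRS was paired with EARS2 and with PARS2, and FARS2 was paired with both phenylalanine subunits, so pairs share genes. Several mitochondrial genes were dim, TARS2 for one at signals of 181.0 to 221.0, so their ratios are understated. The sizes of the differences are limited by this, and no background-corrected values are given for the pairs. With ICG-001 the cytosolic gene had the larger log2 ratio in 13 of 15 pairs in HCT116 at 12 h and in 13 of 16 at 96 h, with median differences of 0.60 and 0.81. In PANC1 it did so in 14 of 16 pairs at 12 h and 13 of 16 at 96 h, with medians of 0.52 and 0.36. The widest gap in PANC1 was for glutamate, where EPRS rose and EARS2 fell at 96 h, a log2 difference of 1.79. Serine, with SARS over SARS2, differed by 0.72 to 1.04 in all 4 comparisons. Isoleucine differed by 0.49 to 1.26 and methionine by 0.54 to 1.24.

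Arginine was the pair that went the other way throughout, with RARS minus RARS2 at -0.68 to -0.28. Valine did so as well, with VARS minus VARS2 at -0.35 to -0.04. With C646 the cytosolic gene had the larger ratio in 7 of 15 and 10 of 15 pairs in HCT116 and in 7 of 16 and 10 of 16 pairs in PANC1, with median differences between -0.03 and 0.11. In the DMSO columns, 96 h over 12 h, it had the larger ratio in 8 of 15 pairs in HCT116 and in 13 of 16 in PANC1, where the median difference was 0.22.

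**Figure D5:**
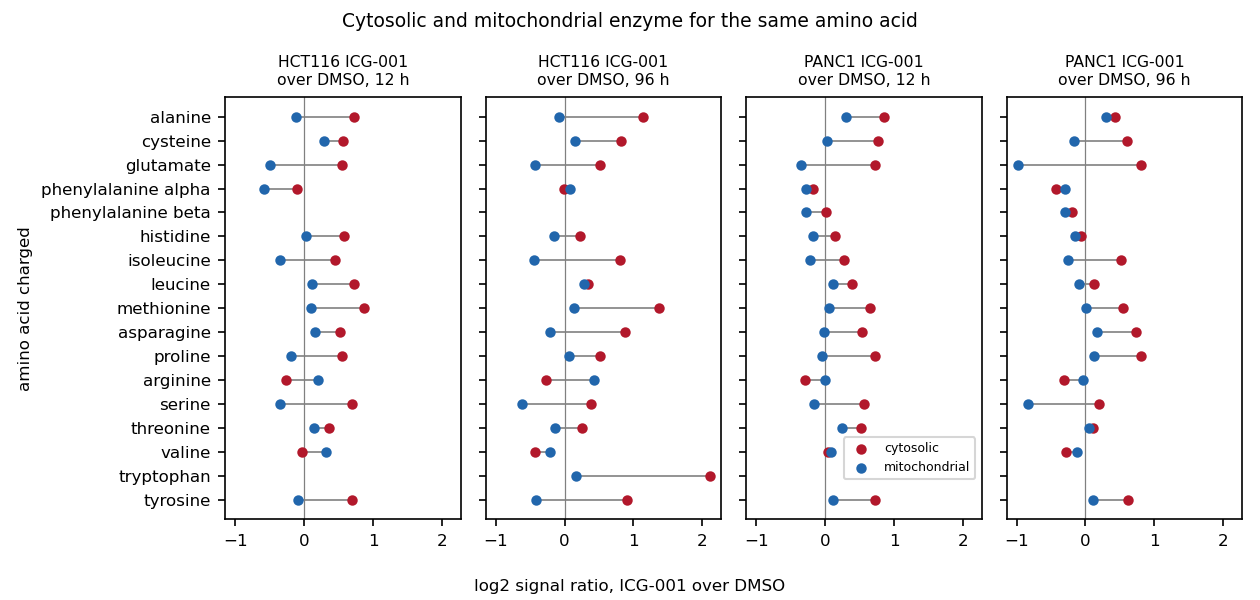
Log2 signal ratio of ICG-001 over DMSO for the cytosolic (red) and the mitochondrial (blue) enzyme of the same amino acid, 1 panel per line and time, joined by a grey line; pairs under the detection limit are left blank. The red point lies to the right in 13 of 15, 13 of 16, 14 of 16 and 13 of 16 pairs, and arginine lies the other way in all 4 panels.

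C646 gave few changes of this size among the synthetases, and the counts were near the shares of all genes given beside them. HARS, the histidine enzyme, rose 1.58-fold in HCT116 at 12 h, the only cytosolic member higher there, and 2.68% of all genes were higher and 1.58% lower. In HCT116 at 96 h no synthetase reached 1.5-fold, where 1.94% of genes were higher and 1.25% lower. None did in PANC1 at 12 h, where 4.09% were higher and 2.76% lower, and CARS alone rose in PANC1 at 96 h, 1.56-fold, where 2.88% were higher and 1.21% lower. Cytosolic medians under C646 stood at 0.06 and 0.08 for HCT116 and at -0.02 and 0.00 for PANC1, and mitochondrial medians ran from -0.09 to 0.05. With normexp correction CARS2 (cysteine), at an uncorrected log2 ratio of 0.57, was 1.69-fold higher in HCT116 at 12 h. LARS2 was 1.55-fold higher with this correction in HCT116 at 96 h and in PANC1 at 12 h. IARS, LARS, TARS and DARS were above a ratio of 1 in all 4 ICG-001 comparisons and under 1 in all 4 C646 comparisons. These are 4 of 19 cytosolic members, against 1.22% of all genes, and both drugs share the DMSO columns. Against the DMSO column of the other time, TARS and DARS no longer had this pattern.

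HARS was chosen after its values were seen. It read 1460 in DMSO, 2191 with ICG-001 and 2308 with C646 in HCT116 at 12 h, and 1270, 1479 and 1724 at 96 h. In PANC1 it read 1090, 1210 and 1490 at 12 h and 1378, 1316 and 1597 at 96 h, so the C646 column was the highest of its trio every time. HARS and its mitochondrial partner HARS2 lie head to head on chromosome 5, with RefSeq start sites 85 bases apart on opposite strands. HARS2 had log2 ratios of 0.06 and -0.36 in HCT116 and of -0.11 and 0.06 in PANC1 for C646, where HARS had 0.66, 0.44, 0.45 and 0.21. The 84 bases between the start sites, chr5:140691371-140691454 of GRCh38.p14, are printed along the plus strand because the pair shares them, with no base in capitals:
HARS and HARS2: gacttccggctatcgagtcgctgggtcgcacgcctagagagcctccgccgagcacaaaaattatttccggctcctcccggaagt

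The drugs were then set against each other within a line and time, a comparison that uses no DMSO column. The ratio of ICG-001 over C646 had cytosolic medians of 0.52 and 0.46 in HCT116 and of 0.41 and 0.29 in PANC1. In HCT116, 8 were higher by 1.5-fold at 12 h and 6 at 96 h, against 3.54% and 3.30% of all genes, and in PANC1 5 and 4 were higher, against 1.61% and 3.42%. GARS, MARS and WARS were higher in all 4 of these comparisons, against 0.352% of all genes. WARS was higher by 2.33-fold and 3.08-fold in HCT116 and by 1.64-fold and 2.26-fold in PANC1. GARS was higher by 1.88-fold and 1.91-fold in HCT116 and by 1.87-fold and 2.05-fold in PANC1.

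QARS was the cytosolic member that was 1.5-fold lower with ICG-001 than with C646, in HCT116 at 96 h, where 3.34% of genes were lower, and none was lower in HCT116 or PANC1 at 12 h, where 2.90% and 0.952% of genes were. HARS, QARS, RARS and VARS had ratios under 1 in all 4 comparisons of the drugs, as had 17.1% of all genes, and 12 cytosolic members were above 1 in all 4, as were 16.5%. Among the mitochondrial members, SARS2 was lower in HCT116 at 96 h, 1.58-fold, and EARS2 and SARS2 were lower in PANC1 at 96 h, 1.53-fold and 1.90-fold, where 3.57% of all genes were lower. The mitochondrial medians ran from -0.18 to 0.03.

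The DMSO columns of the same line at 96 and 12 h show how far cultures without a drug lay apart. WARS fell 1.92-fold from 12 to 96 h in HCT116, the only synthetase past 1.5-fold in either line, where 1.60% of genes were lower and 1.60% higher. MARS, GARS and YARS had log2 ratios of -0.52, -0.50 and -0.49 there. Cytosolic members had a median of -0.20 in HCT116 and of 0.17 in PANC1, mitochondrial members one of -0.19 and -0.07. In PANC1 none passed 1.5-fold, where 0.994% of genes were higher and 0.337% lower, although 12 of the 13 ATF4-linked members had ratios above 1, as had 51.5% of all genes, with AARS at 0.54.

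The companion proteins of the synthetases did not all follow them. AIMP2, a scaffold of the multisynthetase complex, rose in HCT116 from 2045 to 3986 at 12 h and from 1584 to 3726 at 96 h with ICG-001, and read 4859 and 5120 at 12 h and 5240 and 4969 at 96 h in PANC1 DMSO and ICG-001. AIMP2 was thus higher in HCT116 and level in PANC1, with log2 ratios of 0.96 and 1.23 against 0.08 and -0.08, and that difference between lines was not tested. XPOT, which exports tRNA from the nucleus, had log2 ratios of 0.74 and 0.86 in HCT116 and of 0.47 and 1.13 in PANC1 with ICG-001, and between -0.30 and -0.05 with C646. DTD1, which clears D-amino acids from tRNA, rose in HCT116 by 0.65 and 0.80 and had 0.09 and 0.19 in PANC1. AARSD1 and PSTK passed 1.5-fold with ICG-001 only in HCT116 at 12 h, at 0.64 and 0.59, and AARSD1 had 0.59 there with C646. The other scaffolds and tRNA partners checked were AIMP1, EEF1E1, SEPSECS, MTFMT, QRSL1, GATB and GATC. None of them reached 1.5-fold with ICG-001, with log2 ratios from -0.37 to 0.56. Among all genes, 11.6% were higher in at least 1 ICG-001 comparison.

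Many genes of amino acid supply, but not all, were also higher with ICG-001. The shares of all genes to set beside these counts are 4.96% and 5.26% for HCT116 at 12 and 96 h, then 2.23% and 3.95% for PANC1. Of 8 genes for amino acid synthesis, 4 and 6 were 1.5-fold higher with ICG-001 in HCT116, and in PANC1 4 and 7 were, at 12 and 96 h, with medians from 0.58 to 0.84. ALDH18A1, of proline synthesis, passed in none, with -0.39 to 0.07. PSAT1, of serine synthesis, had log2 ratios of 1.03 and 2.18 in HCT116 and of 1.82 and 1.76 in PANC1. ASNS, which makes asparagine, had 0.75 and 1.51 in HCT116, against 1.86 and 0.86 in PANC1. Of 8 amino acid transporters, 3 and 5 were higher in HCT116, 4 and 5 in PANC1, led by SLC7A5 and SLC3A2, the subunits of a large neutral amino acid carrier. SLC7A5 had 1.74 and 2.47 in HCT116, and its PANC1 values were 1.62 and 0.85. SLC38A2, a carrier of small neutral amino acids, passed in none, with log2 ratios from -0.48 to 0.51. Of 12 genes in a list of ATF4 and genes of its stress response, 10 and 9 were higher in each line. ATF4 itself had log2 ratios of 0.35 and 0.71 in HCT116 and of 1.12 and 0.53 in PANC1. TRIB3, a feedback inhibitor of ATF4, had log2 ratios from 2.10 to 2.73. With C646 the medians of these 3 lists lay between -0.13 and 0.24, and single genes passed 1.5-fold. SLC7A5 rose by 0.80 in HCT116 at 96 h and by 1.27 in PANC1 at 12 h, TRIB3 by 0.85 in HCT116 at 96 h and PHGDH by 0.82 in PANC1 at 12 h. The others were ATF5 at both times and DDIT3 at 96 h, in HCT116. In PANC1 several of these genes also stood higher in DMSO at 96 h than at 12 h, PHGDH of serine synthesis by 1.41 and TRIB3 by 1.29.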

How the data were processed

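RNA of HCT116 and PANC1 cells was measured on Illumina HT-12 v4 BeadChips. Per the methods, the authors quantile normalized the intensity values in GenomeStudio, subtracted no background and averaged replicate arrays. The version of GenomeStudio is not given in the sources used here. The deposited intensity values are linear, with 1 column per group and 1 row per gene name. Groups came from the sample titles. Sorted log2 values differed on average by 0.0037 to 0.0093 between columns of a line and by 0.063 to 0.066 between lines.

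Ratios were taken as differences of log2 signals (Python 3.11.15, numpy 2.4.6, pandas 2.3.3, scipy 1.17.1). A detection limit was set in each column at 2.33 SD above the mode of the log2 values, with the SD taken from the lower side. In each column 43.7% to 46.3% of the rows exceeded it. The 14 comparisons were 8 of drug over DMSO, 2 of DMSO at 96 h over 12 h and 4 of ICG-001 over C646. With 1 column per group there was no test. The calculation was tested on simulated data, with noise the size of the background and set changes in genes well above the limit. This checks the calculation only and holds no variation between cultures or replicates. Row names were matched to current symbols of RefSeq (GRCh38.p14), and 6 of the 36 row names (GARS, HARS2, MARS, QARS, SARS and VARS2) are also an older name of another gene. The build behind the array annotation is not given in the sources used here.

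The members and the gene lists were chosen with earlier results of these data known. Values in every column are given for cytosolic members changed 1.5-fold the same way in all 4 ICG-001 comparisons, for GARS and KARS, and for mitochondrial members changed 1.5-fold in any drug comparison; genes named outside this rule were chosen after their values were seen. Genes of other lists were named where called in at least 2 comparisons or where they carry the contrast of the list. The alternatives were all genes kept whatever their signal, a stricter limit of 5 SD, background correction by normexp (limma 3.58.1, R 4.3.3, offset 16), centring on the median of all genes, quantile normalization over all 12 columns, the DMSO column of the other time, GARS and KARS left out, the mean in place of the median, and thresholds of 1.2 and 2. Added after the data were seen were the FARSLB row in place of FARSB and the 6 shared row names left out.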

Additional observations from a re-analysis of the deposited data

Results flagged for a closer look

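In 4 cytosolic synthetases the log2 ratio over DMSO was above 0 in all 4 ICG-001 comparisons and below 0 in all 4 C646 comparisons, 4 of the 19 above the limit throughout, against 1.22% of all genes. The drugs share the DMSO columns in these comparisons, and the difference was not tested. IARS, which charges isoleucine, had ratios from 0.27 to 0.81 with ICG-001 and from -0.40 to -0.01 with C646, a difference of the means of 0.70. LARS, which charges leucine, had 0.13 to 0.72 and -0.41 to -0.12, a difference of 0.61. TARS, which charges threonine, had 0.11 to 0.52 and -0.35 to -0.17, a difference of 0.57. DARS, which charges aspartate, had 0.04 to 0.13 and -0.28 to -0.04, a difference of 0.24. IARS, LARS and DARS belong to the multisynthetase complex.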

How the results depend on the processing

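The medians of both sets and the counts of cytosolic members higher stayed the same, to within the tolerance used, with dim genes kept, with the limit of 5 SD, with normexp correction, with centring, with quantile normalization over all 12 columns, and without GARS and KARS. None of the 34 single ratios that passed 1.5-fold, out of 288 over DMSO, changed sign under any alternative. A change of sign would need a shift of more than 1.5-fold, so this is a weak check. Calls were lost, among them all cytosolic ones for ICG-001 in PANC1 at 12 h with the other DMSO column. Some counts of 0 did change. With normexp 2 cytosolic members, FARSA and FARSB, were lower for ICG-001 in PANC1 at 96 h, FARSB with signals near the detection limit. With the same correction 2 mitochondrial members, EARS2 and FARS2, were lower for ICG-001 in HCT116 at 12 h. For C646 it made CARS2 higher in HCT116 at 12 h, and LARS2 in HCT116 at 96 h and in PANC1 at 12 h. With centring and with quantile normalization over all 12 columns 1 mitochondrial member was lower for ICG-001 in HCT116 at 12 h. The DMSO column of the other time moved most. With it the cytosolic median became 0.70 and 0.27 for ICG-001 in HCT116 at 12 and 96 h, 0.28 and 0.49 for ICG-001 in PANC1, 0.23 for C646 in HCT116 at 12 h, and -0.18 and 0.24 for C646 in PANC1, and it turned to -0.10 for C646 in HCT116 at 96 h. In HCT116 at 12 h the mitochondrial median became 0.11 with ICG-001 and 0.23 with C646, and it turned to 0.020 for C646 in PANC1 at 12 h. The number of cytosolic members higher became 2 for C646 in HCT116 at 12 h, 0 for ICG-001 in PANC1 at 12 h and 3 for C646 in PANC1 at 96 h. The mean over cytosolic members for ICG-001 was 0.42 and 0.49 in HCT116, 0.35 and 0.27 in PANC1, and over mitochondrial members it was -0.055 for ICG-001 in HCT116 at 12 h and turned to 0.023 for C646 in PANC1 at 12 h. Without the shared row names the mitochondrial median for ICG-001 in HCT116 was -0.082 at 12 h and -0.012 at 96 h, the cytosolic median in PANC1 at 12 h was 0.34, and 5 cytosolic members were higher in HCT116 at 12 h. With the FARSLB row the cytosolic median for ICG-001 in PANC1 at 96 h was 0.27. At a threshold of 1.2, 13 cytosolic members were higher for ICG-001 in HCT116 and 12 in PANC1 at 12 h, and for C646 5 in HCT116 at 96 h and 4 and 2 in PANC1. At a threshold of 2, ICG-001 had 1 and 4 in HCT116, 0 and 1 in PANC1, and C646 had 0 in HCT116 at 12 h and 0 in PANC1 at 96 h. No cause of these shifts was tested. Arrays could not be paired by replicate, because each group has 1 column of averaged arrays, which carries no replicate number. A fit of the drugs over the 4 combinations of line and time, which would take lines and times as replicates, was not run. Signals near the background understate ratios, which limits FARSB, WARS2 and the dimmer mitochondrial members.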

Other observations

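Other parts of the protein synthesis machinery were compared for ICG-001 over DMSO. The 75 rows of mitochondrial ribosomal proteins had median log2 ratios of -0.18 and -0.19 in HCT116 and of -0.13 and -0.17 in PANC1, at 12 and 96 h, and the 86 rows of cytosolic ribosomal proteins, of which 81 or 82 passed the limit, had 0.00, -0.10, -0.02 and -0.08 in the same order. TUFM, the mitochondrial elongation factor that brings charged tRNA to the ribosome, had ratios under 1 in all 8 drug comparisons, as had 11.9% of all genes. Its log2 ratios were -1.07 to -0.63 with ICG-001 in HCT116, -0.39 and -0.93 with ICG-001 in PANC1, and between -0.60 and -0.39 with C646. The mitochondrial elongation factors TSFM, GFM1 and GFM2 did not share this fall with ICG-001. GFM1 had 0.44 and 0.28 in HCT116 and 0.01 and -0.13 in PANC1. TSFM ran from -0.17 to 0.22 and GFM2 from -0.13 to 0.18. EEF1A1, the cytosolic counterpart of TUFM, stayed between -0.03 and 0.17. EEF2, the cytosolic translocation factor, had -0.59 in HCT116 and -0.67 in PANC1 with ICG-001 at 96 h. TARSL2, now named TARS3, a further threonine enzyme, was above the detection limit in all 12 columns at signals of 143.1 to 171.6, and its ratios carry mostly background.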
